A study of Mus musculus with 16 samples.

Results

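The natriuretic peptide system was followed in the hearts of 16 mice through the transcripts of 8 genes, found by symbol among the 55573 genes counted. These 8 genes were chosen with earlier results of these data known. They were the peptide precursors Nppa, Nppb and Nppc, the receptors Npr1, Npr2 and Npr3, and the proteases Corin and Mme. All 16 mice were wild-type males that had received AAV9 by subcutaneous injection on postnatal day 1, and they formed 4 groups of 4, in which AAV9-GFP or AAV9-Cardinal was combined with sham surgery or TAC. Cardinal is a mouse long noncoding RNA, listed in the counts as Gm12295, and GFP is a fluorescent protein that serves as the control cargo. Both cargoes were driven by the chicken cardiac TNT promoter, which is active in cardiomyocytes, so no group was free of virus. TAC (transverse aortic constriction) narrows the aorta and makes the left ventricle pump against a raised pressure, and sham mice had the same surgery without the ligation. RNA was taken from the apex of the heart 4 weeks after surgery. Strain and age at surgery are not given in the sources used here. The study asked whether raising Cardinal in cardiomyocytes alters the response of the heart to pressure overload, and Nppa and Nppb are the transcripts most often used to read that response.

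Natriuretic peptides are hormones of the heart muscle. Nppa and Nppb encode the precursors of ANP and BNP, which are released when the chamber wall is stretched and act on kidney, vessel and heart to lower blood volume and pressure. In the adult heart, ANP comes mainly from the atria, and the ventricle expresses Nppa again under load. Corin is a protease on the cardiomyocyte surface that cuts the ANP precursor to its active form, whereas Mme (neprilysin) degrades the peptides. Npr1 is the receptor for ANP and BNP and makes cGMP, Npr2 does the same for CNP (the product of Nppc), and Npr3 takes the peptides up and clears them.

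Nppb and Nppa are neighbours on chromosome 4 and both transcripts rose after TAC, so the bases upstream of each RefSeq start are shown. Both are taken from RefSeq on GRCm38.p6, read on the plus strand from 250 bases before the RefSeq start up to the start itself, at chr4:147985650-147985899 for Nppb and chr4:148000472-148000721 for Nppa. Capitals mark matches on either strand to motifs of the core promoter and of cardiac factors. TATAAA is the TATA box. GATAA is bound by GATA factors. GGAATG is the M-CAT site of TEAD factors. TNAAGTG is the NKE site of NKX2-5, and GGTGTGA is a half-site of T-box factors.
Nppb: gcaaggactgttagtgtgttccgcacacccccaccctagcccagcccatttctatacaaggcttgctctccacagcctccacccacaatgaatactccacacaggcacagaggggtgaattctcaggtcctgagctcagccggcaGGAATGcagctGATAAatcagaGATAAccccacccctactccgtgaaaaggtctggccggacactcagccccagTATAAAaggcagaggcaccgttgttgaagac
Nppa: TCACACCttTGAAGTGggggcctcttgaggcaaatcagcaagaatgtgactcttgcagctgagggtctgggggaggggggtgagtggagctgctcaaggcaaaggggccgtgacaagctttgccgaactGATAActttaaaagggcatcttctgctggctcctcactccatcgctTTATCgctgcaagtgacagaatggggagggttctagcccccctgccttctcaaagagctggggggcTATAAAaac
The RefSeq start of Nppa is also its start in GENCODE, whereas that of Nppb lies 112 bases inside the gene as GENCODE gives it, so that the last 112 bases printed for Nppb, with all of its marked matches, fall within the GENCODE gene. The Nppb window held a TATA box whose first base lay at -31 from the RefSeq start, GATA sites at -94 and -83, and an M-CAT site at -105. The Nppa window held a TATA box at -9, GATA sites at -121 and, on the minus strand, at -75, an NKE site at -241 and a T-box half-site on the minus strand at -250. Of 32851 mouse windows of this length, 12.4% held the TATA box letters, 22.6% the GATA letters, 12.6% the M-CAT letters, 10.1% the NKE letters and 3.33% the T-box letters. A CArG box, present in 1.47% of windows, and a MEF2 site, present in 2.92%, matched neither window. These are matches of letters only, and binding was not measured.

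Library totals lay between 21525012 and 21904589 counts except in AAV9-Cardinal sham replicate 4, which had 16441997. Values are given as CPM (counts scaled to a common library size after TMM normalization), and 3 counts, the floor taken as detection, came to between 0.137 and 0.182 CPM. Gm12295 was between 18.3 and 93.9 CPM in the 8 AAV9-Cardinal mice and between 3.42 and 7.24 CPM in the 8 AAV9-GFP mice, so each library matched the virus on its label. AAV9-Cardinal TAC replicate 1 held the 93.9 CPM, and the other 3 mice of its group held between 18.3 and 20.6 CPM. The ventricular origin of the samples was checked with 4 atrial cardiomyocyte markers, Myl7, Myl4, Sln and Bmp10, whose summed level lay between 0.00 and 2.53 CPM over all mice, against at least 28400 CPM for 5 general cardiomyocyte markers. In bulk tissue, fewer cells of a type and less RNA per cell cannot be told apart.

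In AAV9-GFP hearts, TAC raised both expressed peptide precursors and lowered both proteases, and no receptor transcript passed the test. Of the 7 members with enough counts to test, 2 passed upward and 2 downward at an adjusted p of 0.05 in edgeR's quasi-likelihood test, where 17.4% of all 16857 tested genes passed (8.49% upward and 8.92% downward). The eighth, Nppc, had 0 counts in all 16 mice, which allows a level of up to 0.182 CPM, and it was not tested. In AAV9-Cardinal hearts 3 of 7 members passed, Nppa and Nppb upward and Mme downward, against 6.48% of all tested genes (3.10% upward and 3.38% downward). Between the viruses, 0 of 7 members passed in sham hearts and 0 of 7 in TAC hearts, where 0.0119% and 0.101% of all tested genes passed. Before adjustment, edgeR gave a p under 0.05 for 0 members in sham hearts and for 3 in TAC hearts (Nppa, Corin and Mme), and for 2.59% and 15.0% of all tested genes. DESeq2 called 0 members between viruses in sham hearts and 2, Nppa and Corin, in TAC hearts, where it called 0.0237% and 2.54% of all tested genes.

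**Figure D1:**
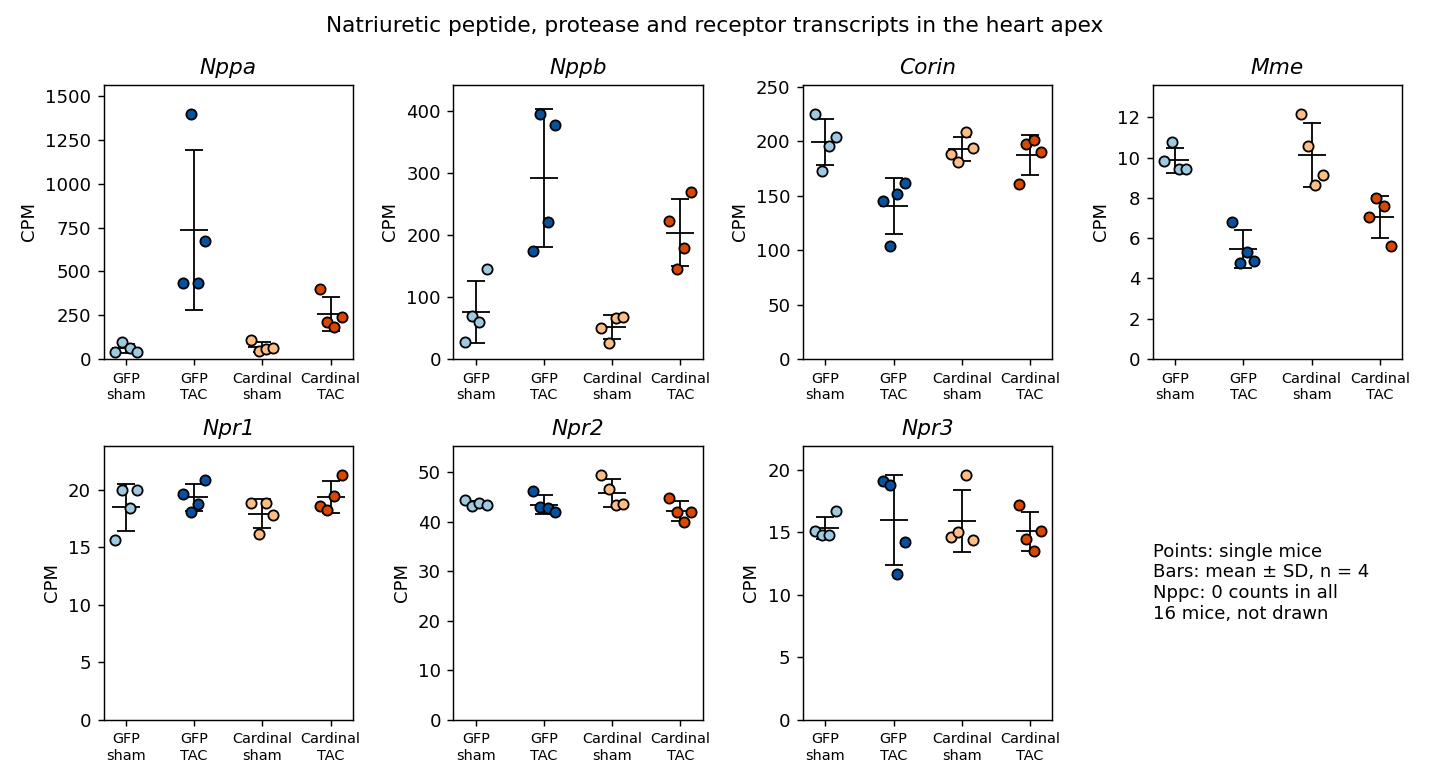
CPM of the 7 expressed members (vertical axes, linear from 0) in the 4 groups, with a point for each mouse and a bar for mean ± SD (n = 4). Nppa in AAV9-GFP TAC hearts reached 1396 CPM in 1 mouse and at least 431 CPM in the others, Corin had its lowest group mean in AAV9-GFP TAC hearts, and the levels of each of the 3 receptors overlapped among the groups.

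Nppa (ENSMUSG00000041616), the ANP precursor, spans bases 148000722 to 148002079 of chromosome 4 (GRCm38, plus strand). AAV9-GFP sham replicates 1 to 4 had 42.5, 96.1, 65.0 and 41.7 CPM. AAV9-GFP TAC replicates 1, 3, 4 and 7 had 434, 1396, 431 and 675 CPM. The lowest TAC heart was thus more than 4 times the highest sham heart. The rise was 12.0-fold (95% interval 6.29 to 22.8), a log2 fold change of 3.58 (SE 0.44, adjusted p = 8.1e-05, edgeR's quasi-likelihood test).

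With AAV9-Cardinal, Nppa was 106, 44.2, 58.2 and 64.3 CPM in sham replicates 1 to 4. It was 399, 213, 183 and 241 CPM in TAC replicates 1, 4, 5 and 6. Again no TAC heart overlapped a sham heart, as was the case for 13.7% of all tested genes in this comparison and 20.3% in the AAV9-GFP comparison. The fitted rise was 3.80-fold (95% interval 2.07 to 6.95), a log2 fold change of 1.92 (SE 0.41, adjusted p = 0.014, edgeR's quasi-likelihood test). This call was lost without AAV9-Cardinal sham replicate 2, the lowest Nppa level of its group (adjusted p = 0.054 in the same test). With mouse number as a block in that test it was lost as well (adjusted p = 0.097).

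After TAC, every AAV9-Cardinal heart was below every AAV9-GFP heart in Nppa, 399 CPM at the most against 431 CPM at the least, a gap that is small beside the spread within either group. Separation in this direction was seen for 3.19% of tested genes. The mean log2 CPM differed by -1.39 (exact two-sided permutation p = 0.029, the smallest that 4 mice against 4 allow). The fitted level was 2.84-fold lower with AAV9-Cardinal, a log2 fold change of -1.50 (SE 0.40, 95% interval -2.36 to -0.65), which did not pass over all genes (adjusted p = 0.10, edgeR's quasi-likelihood test). DESeq2 gave an adjusted p of 0.037 for the same comparison. In edgeR's quasi-likelihood test, leaving out AAV9-Cardinal TAC replicate 1 also brought it past the threshold (-1.79, adjusted p = 0.037). That mouse had the highest Nppa of its group and 93.9 CPM of Gm12295. Leaving out AAV9-GFP TAC replicate 3, the mouse at 1396 CPM, brought the Nppa difference to -0.99 (adjusted p = 0.34, same test). In sham hearts Nppa differed by 0.15 on the log2 scale (95% interval -0.71 to 1.01). Tested directly, the TAC responses of Nppa under the viruses differed by -1.66 on the log2 scale (SE 0.57, unadjusted p = 0.010, adjusted p = 0.36, edgeR's quasi-likelihood test), so a smaller rise with Cardinal was not established over all genes. For this difference of responses, 0.0119% of tested genes passed and 0 of 7 members did.

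Nppb (ENSMUSG00000029019), the BNP precursor, lies 14.9 kb upstream of Nppa from 147985788 to 147987205 on the same strand. Its levels in AAV9-GFP sham replicates 1 to 4 were 27.0, 68.7, 59.4 and 145 CPM, a wider spread relative to its mean than for any other member in a sham group. AAV9-GFP TAC replicates 1, 3, 4 and 7 had 174, 394, 221 and 377 CPM. Every TAC heart was above every sham heart, although the lowest TAC value was close to the highest sham value. In this comparison 20.3% of all tested genes had no overlap, in either direction. The rise was 3.89-fold (95% interval 2.06 to 7.34), a log2 fold change of 1.96 (SE 0.43, adjusted p = 0.0057, edgeR's quasi-likelihood test). With mouse number as a block in the same test, this call was lost (adjusted p = 0.060).

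The fitted rise of Nppb with AAV9-Cardinal was of similar size. Sham replicates 1 to 4 had 49.5, 25.5, 65.7 and 67.7 CPM. TAC replicates 1, 4, 5 and 6 had 223, 145, 178 and 268 CPM. The lowest TAC heart was more than 2 times the highest sham heart, and 13.7% of all tested genes had no overlap here, in either direction. The fitted rise was 3.92-fold (log2 1.97, SE 0.43, adjusted p = 0.017, edgeR's quasi-likelihood test). Leaving out AAV9-Cardinal sham replicate 2 or TAC replicate 6 ended this call (adjusted p = 0.057 and 0.050, edgeR's quasi-likelihood test). Mouse number as a block in the same test also ended it (adjusted p = 0.16). The 2 log2 responses differed by 0.012, with a wide 95% interval from -1.25 to 1.27. After TAC, Nppb was -0.52 on the log2 scale with AAV9-Cardinal against AAV9-GFP (95% interval -1.40 to 0.37), and the mice overlapped (exact two-sided permutation p = 0.29). The interval includes no change as well as a fall of more than 2-fold.

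Nppa and Nppb were therefore set against each other within each mouse, as the ratio of their counts, which does not depend on library scaling. The ratio, on a linear scale, was 1.57, 1.40, 1.09 and 0.287 in AAV9-GFP sham replicates 1 to 4 and 2.50, 3.54, 1.95 and 1.79 in AAV9-GFP TAC replicates 1, 3, 4 and 7. Nppa counts were thus the higher in all 4 TAC hearts, and the groups did not overlap. In AAV9-Cardinal sham replicates 1 to 4 it was 2.14, 1.73, 0.886 and 0.949, and in TAC replicates 1, 4, 5 and 6 it was 1.79, 1.46, 1.02 and 0.898, with full overlap. The log2 ratio rose by 1.37 after TAC with AAV9-GFP (exact two-sided permutation p = 0.029, Benjamini-Hochberg adjusted p = 0.11 over 8 tests). With AAV9-Cardinal it differed by -0.092 (exact two-sided permutation p = 0.77). After TAC the log2 ratio was lower by 0.92 with AAV9-Cardinal than with AAV9-GFP (-0.92, exact two-sided permutation p = 0.029, adjusted 0.11), but the linear ratios of the groups were separated only by 1.788 against 1.790. None of the 8 ratio tests passed after adjustment, and with 4 mice against 4 an unadjusted p of 0.029 is the smallest possible. The exact permutation tests that reached it could not go below their adjusted 0.11 beside the other ratio tests. Their failure to pass therefore does not tell whether the ratio changed.

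**Figure D2:**
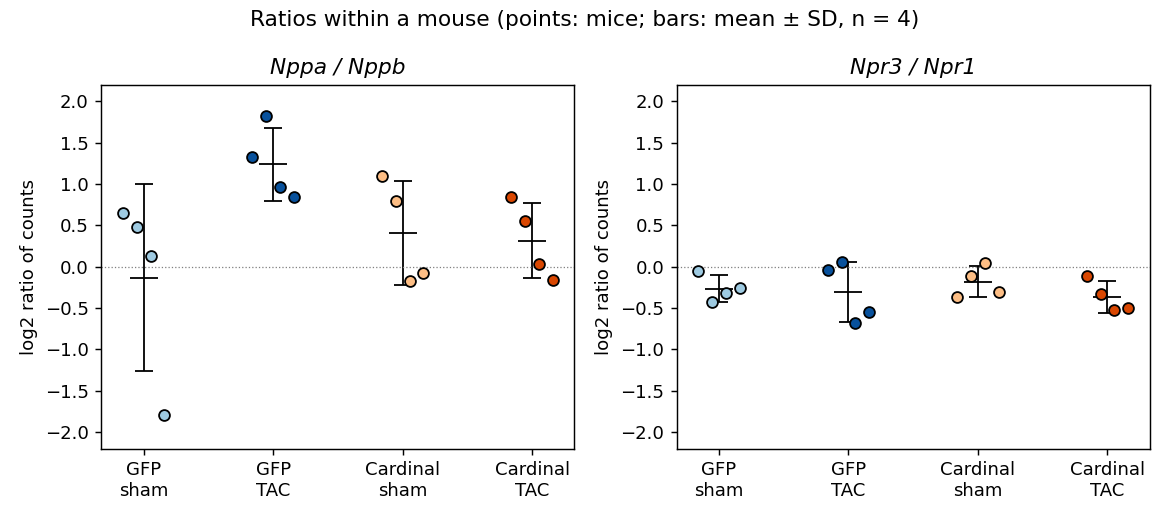
Log2 ratio of counts (vertical axes) within each mouse for Nppa against Nppb (left) and for Npr3 against Npr1 (right) in the 4 groups, with points for mice and bars for mean ± SD (n = 4). The log2 ratio of Nppa to Nppb had its highest mean, 1.24, in AAV9-GFP TAC hearts and its lowest single value, -1.80, in AAV9-GFP sham replicate 4, and the Npr3 to Npr1 ratio overlapped in all groups.

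Corin (ENSMUSG00000005220; chromosome 5, 72300025 to 72504473, minus strand), the ANP-converting protease, was at 225, 173, 195 and 204 CPM in AAV9-GFP sham replicates 1 to 4. In AAV9-GFP TAC replicates 1, 3, 4 and 7 Corin was 145, 104, 152 and 162 CPM, all below the lowest sham heart (no overlap, in either direction, for 20.3% of all tested genes). It fell by 0.50 on the log2 scale (SE 0.12, adjusted p = 0.0080, edgeR's quasi-likelihood test), that is by 29.5%. AAV9-GFP TAC replicate 3 had both the highest Nppa and the lowest Corin of all 16 mice. AAV9-Cardinal hearts had 188, 181, 208 and 194 CPM in sham replicates 1 to 4 and 161, 198, 201 and 190 CPM in TAC replicates 1, 4, 5 and 6. These groups overlapped, with a log2 difference of -0.043 (95% interval -0.29 to 0.21).

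After TAC, Corin was higher by 0.41 on the log2 scale with AAV9-Cardinal than with AAV9-GFP (SE 0.12), without passing over all genes (adjusted p = 0.12, edgeR's quasi-likelihood test; exact two-sided permutation p = 0.057). DESeq2 gave an adjusted p of 0.018, and the other settings, in edgeR's quasi-likelihood test, did not pass (adjusted p up to 0.447). With each of the 16 mice left out in turn, that test gave 0.30 to 0.49 on the log2 scale and adjusted p from 0.042 to 0.345. Only 1 of these fits passed, the one without AAV9-Cardinal TAC replicate 1 (0.042). That mouse had the lowest Corin of its group and 93.9 CPM of Gm12295. The 2 TAC responses of Corin differed by 0.46 (SE 0.17, unadjusted p = 0.014, adjusted p = 0.37, edgeR's quasi-likelihood test). Beside Corin, 4 of 5 cardiomyocyte markers (Myh6, Tnnt2, Myl2 and Ryr2, but not Actc1) also fell in AAV9-GFP TAC hearts, where 8.92% of all tested genes passed downward. The median log2 fold change was -0.28 for the list against 0.0050 for all genes tested. The summed level of the 5 markers was 36110 to 39280 CPM in AAV9-GFP sham, 28400 to 34570 CPM in AAV9-GFP TAC, 35080 to 38630 CPM in AAV9-Cardinal sham and 33890 to 37930 CPM in AAV9-Cardinal TAC hearts. With AAV9-Cardinal, 0 of the 5 passed for TAC against sham, where 6.48% of all tested genes passed. Between the viruses after TAC and for the difference of TAC responses, 0 of the 5 passed as well. In these 2 comparisons 0.101% and 0.0119% of all tested genes passed. The part of the marker changes in the Corin and Nppa values was not tested.

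Mme (ENSMUSG00000027820; chromosome 3, 63241537 to 63386030, plus strand), the peptide-degrading neprilysin, was the least abundant of the expressed members per length. It was at 9.84, 10.8, 9.46 and 9.43 CPM in AAV9-GFP sham replicates 1 to 4. AAV9-GFP TAC replicates 1, 3, 4 and 7 had 6.82, 4.78, 5.29 and 4.87 CPM. No TAC heart reached a sham heart, and 20.3% of all tested genes had no overlap here, in either direction. Mme fell by 0.86 on the log2 scale (SE 0.14, adjusted p = 5.8e-04, edgeR's quasi-likelihood test), that is by 44.9%. The values rest on between 112 and 224 counts per mouse.

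With AAV9-Cardinal, Mme was 12.2, 10.6, 8.65 and 9.15 CPM in sham replicates 1 to 4 and 7.04, 7.99, 7.59 and 5.62 CPM in TAC replicates 1, 4, 5 and 6. These groups were also separate, as were those of 13.7% of all tested genes, in either direction. The decrease of Mme was 0.53 on the log2 scale (-0.53, SE 0.13, adjusted p = 0.032, edgeR's quasi-likelihood test). That call was lost without AAV9-Cardinal sham replicate 1 or 2 or TAC replicate 5 or 6 (adjusted p up to 0.10, edgeR's quasi-likelihood test). In the same test it was also lost with no filter on low counts (0.058), in a fit of these 8 mice alone (0.058) and with mouse number as a block (0.19). After TAC, Mme was higher with AAV9-Cardinal by 0.37 (SE 0.14, adjusted p = 0.21, edgeR's quasi-likelihood test; exact two-sided permutation p = 0.057), with 3 of 4 mice above all AAV9-GFP mice. The TAC responses of Mme differed by 0.33 (95% interval -0.071 to 0.74).

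**Figure D3:**
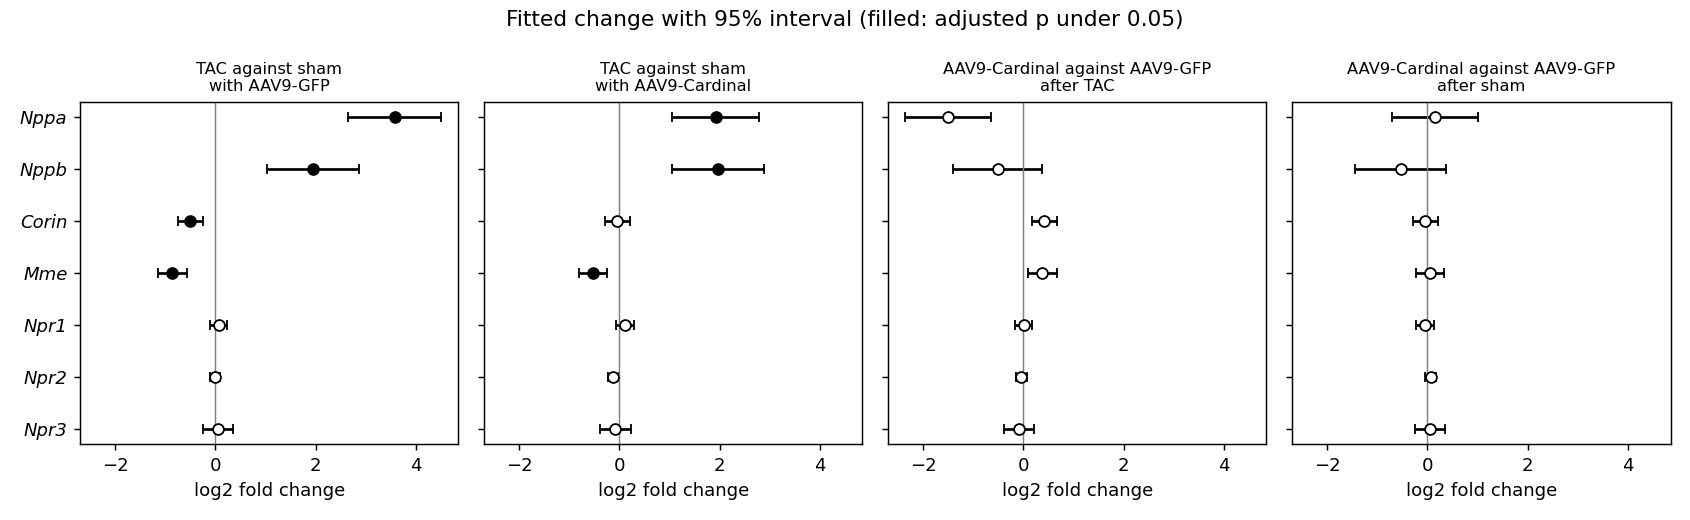
Fitted log2 fold changes (horizontal axes) of the 7 tested members with 95% intervals for TAC against sham with each virus and for AAV9-Cardinal against AAV9-GFP after TAC and after sham. Filled points passed an adjusted p of 0.05. Nppa, Nppb, Corin and Mme are filled in the first panel, Nppa, Nppb and Mme in the second, and none in the panels that compare the viruses.

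None of Npr1, Npr2 and Npr3 passed in any comparison, and the largest bounds of their 95% intervals for TAC against sham were -0.38 and 0.36 on the log2 scale, both for Npr3. Npr1 (ENSMUSG00000027931), the ANP and BNP receptor, was 18.5 ± 2.05 CPM in AAV9-GFP sham, 19.3 ± 1.20 in AAV9-GFP TAC, 17.9 ± 1.26 in AAV9-Cardinal sham and 19.4 ± 1.37 in AAV9-Cardinal TAC hearts (mean ± SD, n = 4 each). Its TAC response was 0.065 with AAV9-GFP (95% interval -0.11 to 0.24) and 0.11 with AAV9-Cardinal (-0.064 to 0.29) on the log2 scale. A doubling or halving of Npr1 mRNA is outside both intervals.

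Npr2 (ENSMUSG00000028469), the CNP receptor, was the most abundant receptor per length and, relative to its mean, varied least of the members within 3 of the 4 groups. It was 43.8 ± 0.50, 43.5 ± 1.89, 45.8 ± 2.86 and 42.2 ± 2.00 CPM (mean ± SD, n = 4) in sham and TAC hearts with AAV9-GFP and in sham and TAC hearts with AAV9-Cardinal. Its response was -0.0092 with AAV9-GFP (95% interval -0.12 to 0.099). With AAV9-Cardinal it was -0.12 (95% interval -0.23 to -0.0097; unadjusted p = 0.035, adjusted p = 0.19, edgeR's quasi-likelihood test), with overlap between the mice. Its peptide ligand had no counts, as given above.

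Npr3 (ENSMUSG00000022206), the clearance receptor, varied most of the receptors, relative to its mean, within 3 of the 4 groups. AAV9-GFP TAC replicates 1, 3, 4 and 7 had 19.1, 18.8, 11.7 and 14.2 CPM, so that 2 lay above and 2 below all AAV9-GFP sham hearts, which had between 14.8 and 16.7 CPM. AAV9-Cardinal sham hearts had 14.3 to 15.0 CPM in 3 mice and 19.6 CPM in replicate 3, and AAV9-Cardinal TAC hearts had 13.5 to 17.2 CPM. Responses to TAC were 0.057 (95% interval -0.24 to 0.36) with AAV9-GFP and -0.079 (-0.38 to 0.22) with AAV9-Cardinal. The ratio of Npr3 to Npr1 counts lay between 0.623 and 1.04 over all mice and overlapped in all 4 comparisons, with exact two-sided permutation p from 0.23 to 0.86 on its log2 values.

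Levels of different members can be compared only per kilobase of exon. In AAV9-GFP sham hearts the order was Nppb at 96.1 ± 64.0 CPM per kb, Nppa at 70.9 ± 29.6, Corin at 36.9, Npr2 at 9.37, Npr1 at 3.86, Npr3 at 1.63 and Mme at 0.855 (means, n = 4). Nppb and Nppa could not be ordered there, since their difference was within the SD of either. In AAV9-GFP TAC hearts Nppa came first at 849 ± 527 CPM per kb and Nppb second at 373 ± 142 (mean ± SD, n = 4).

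Each member was also placed in its locus. Nppa shares 61.5% of its exon bases with Gm13054, an antisense gene, and 53.4% of the 50-base stretches of its transcripts occur in Gm13054 as well. Whether counting used strand is not given in the sources used here, so reads of the pair cannot be told apart. Gm13054 was counted at 0.899 ± 0.714, 6.37 ± 3.53, 1.00 ± 0.368 and 2.29 ± 0.583 CPM (mean ± SD, n = 4) in sham and TAC hearts with AAV9-GFP and in sham and TAC hearts with AAV9-Cardinal, far below Nppa in each. It rose by 2.82 on the log2 scale with AAV9-GFP (SE 0.48, adjusted p = 9.6e-04) and showed 1.18 with AAV9-Cardinal (SE 0.50, adjusted p = 0.18; both edgeR's quasi-likelihood test). Adding counts so far below those of Nppa could move the Nppa response only slightly, and with them it was 3.57 in AAV9-GFP hearts. This sum does not tell how reads of the shared bases were counted. The other members overlap an antisense or neighbouring gene over at most 11.7% of exon bases (Npr1), and Nppb, Nppc and Mme overlap none.

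**Figure D4:**
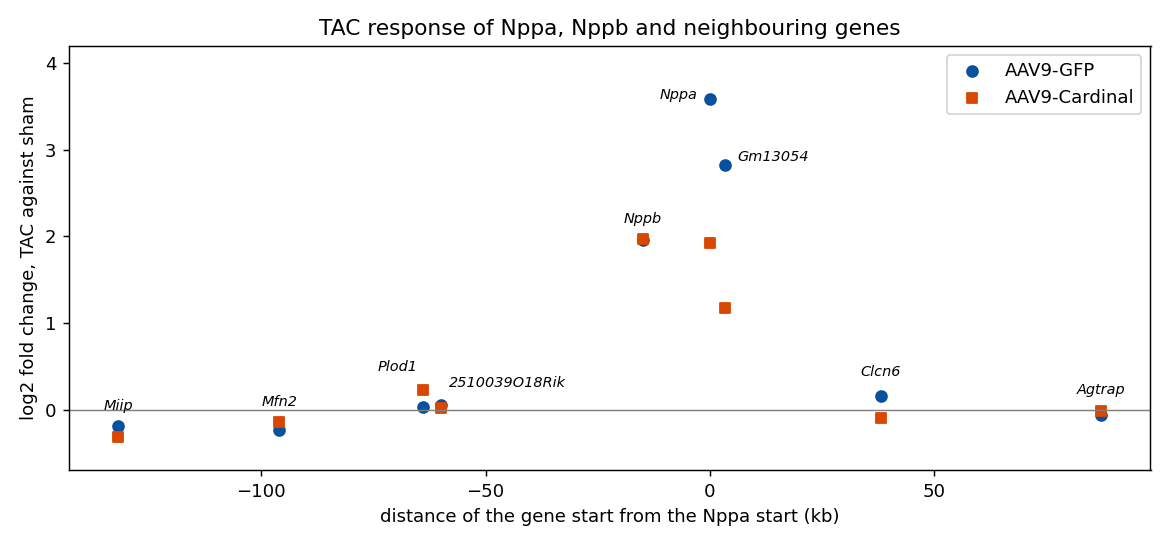
Log2 fold change of TAC against sham (vertical axis) for Nppa, Nppb and 7 tested neighbours on chromosome 4, by the distance of each gene's start from the Nppa start (horizontal axis, kb), with AAV9-GFP as circles and AAV9-Cardinal as squares. Nppa, Nppb and Gm13054 stand above 1 with both viruses, and the other 6 lie between -0.32 and 0.23.

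Around the peptide genes, 7 of the 8 neighbours examined were abundant enough to test. With TAC averaged over both viruses, 23.1% of all tested genes passed (11.3% upward and 11.8% downward), and of the neighbours 1 rose (Gm13054) and 2 fell: Mfn2, a mitochondrial fusion protein, by 0.19 (SE 0.03, adjusted p = 9.1e-05), and Miip by 0.26 (SE 0.09, adjusted p = 0.046, both edgeR's quasi-likelihood test). The median over the neighbours was 0.030 against 0.0042 over all genes tested. Clcn6, a chloride transporter gene on the far side of Nppa from Nppb, had 0.15 with AAV9-GFP and -0.094 with AAV9-Cardinal on the log2 scale, neither past the threshold.

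The 3 genes whose profile over the 16 mice was closest to that of Nppa, by the root mean square difference of centred log2 CPM among 14293 genes, were Cilp (0.42), Ltbp2 (0.43) and the processed pseudogene Gm17228 (0.44). Cilp and Ltbp2 encode proteins of the extracellular matrix. Cilp was 2.86 ± 0.36 CPM in AAV9-GFP sham, 35.2 ± 11.3 in AAV9-GFP TAC, 2.78 ± 0.65 in AAV9-Cardinal sham and 11.3 ± 7.89 in AAV9-Cardinal TAC hearts (mean ± SD, n = 4). Nppb ranked 19 on this measure (0.80). The 3 closest to Nppb were Tnfrsf12a (0.40), the receptor for TWEAK, Spsb4 (0.44) and Edn3 (0.46), which encodes endothelin-3. Tnfrsf12a was 23.9 ± 11.5, 69.6 ± 25.4, 17.6 ± 8.87 and 66.1 ± 31.1 CPM (mean ± SD, n = 4) in sham and TAC hearts with AAV9-GFP and in sham and TAC hearts with AAV9-Cardinal. Nppa ranked 77 for Nppb. These are descriptions of likeness among mice that share libraries and conditions, and carry no test.

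Of 15 transcription factors known at the Nppa and Nppb promoters, all were tested, and 5 rose and 4 fell with TAC averaged over both viruses, with a median log2 fold change of 0.052, beside 11.3% and 11.8% of all tested genes and a median of 0.0042 over them. Tbx20 rose by 0.44 (SE 0.06) and Tead1, whose family binds M-CAT sites such as the one printed for Nppb, by 0.26 (SE 0.04), with adjusted p of 6.2e-05 and 6.2e-04 in edgeR's quasi-likelihood test. Srf (0.25), Rest (0.22), a repressor of Nppa and Nppb, and Tbx2 (0.27), a T-box repressor, also rose. Mef2a fell by 0.44 (SE 0.06), Mef2d by 0.21 (SE 0.04), Myocd by 0.35 (SE 0.09) and Gata6 by 0.14 (SE 0.05). Gata4 (0.067) and Nkx2-5 (0.052), the classical activators of Nppa, did not pass. With AAV9-GFP, 3 rose (Tbx2, Tbx20 and Tead1) and 5 fell (Mef2a, Mef2d, Myocd, Gata6 and Tbx5), beside 8.49% and 8.92% of all tested genes. With AAV9-Cardinal, 2 rose (Tbx20 and Tead1) and 2 fell (Mef2a and Mef2d), beside 3.10% and 3.38%. Between the viruses after TAC and for the difference of TAC responses, 0 of 15 passed, beside 0.101% and 0.0119% of all tested genes.

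Among 16 genes of cGMP synthesis, breakdown and action, 13 were tested, and 4 rose and 2 fell with TAC averaged over both viruses (median log2 fold change 0.18), beside the same 11.3% and 11.8% of all tested genes. The cGMP-cleaving Pde9a rose by 0.81 (SE 0.23, adjusted p = 0.021, edgeR's quasi-likelihood test), and Pde1a, another phosphodiesterase, by 0.36. Prkg1, the cGMP-dependent kinase, rose by 0.41 (SE 0.11) and its substrate Vasp by 0.24. Rgs2, which dampens Gq signalling and is a target of that kinase, fell by 0.80 (SE 0.16, adjusted p = 0.0020, edgeR's quasi-likelihood test), and Pde3a fell by 0.23. With AAV9-GFP alone, 3 rose (Pde9a by 1.25, Prkg1 and Vasp) and 2 fell (Rgs2 by 1.24 and Pde3a), beside 8.49% and 8.92% of all tested genes. With AAV9-Cardinal, 1 rose (Pde1a, which did not pass with AAV9-GFP) and 0 fell, beside 3.10% and 3.38%. The -0.36 of Rgs2 and the 0.36 of Pde9a with AAV9-Cardinal did not pass. Between the viruses after TAC and for the difference of TAC responses, 0 of 13 passed, beside 0.101% and 0.0119% of all tested genes. Pde2a had as few as 18 counts in 1 AAV9-GFP TAC mouse and as many as 1110 in another of the same group, and its changes are not read.

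Of 8 genes for storage, processing and related ligands, 5 were tested, and 1 rose and 2 fell with TAC averaged over both viruses (median -0.29), again beside 11.3% and 11.8% of all tested genes. Pam, which is abundant in atrial granules and amidates peptides, rose by 0.54 (SE 0.06, adjusted p = 1.3e-05, edgeR's quasi-likelihood test), with 0.64 in AAV9-GFP and 0.44 in AAV9-Cardinal hearts. Pcsk6, the convertase that activates Corin, fell by 0.29 (SE 0.06, adjusted p = 0.0027) and Ide, a protease that degrades ANP, by 0.37 (SE 0.12, adjusted p = 0.034, both edgeR's quasi-likelihood test). Pcsk6 fell by 0.43 with AAV9-GFP, and its -0.14 with AAV9-Cardinal did not pass. Furin (0.24) and Dpp4 (-0.48) did not pass averaged over both viruses. With AAV9-GFP and with AAV9-Cardinal, in this order, Ide had -0.24 and -0.51, Furin 0.073 and 0.41, and Dpp4 -0.42 and -0.54. These were larger with AAV9-Cardinal, and none of them passed with either virus. Chga, Chgb and Ostn were too low to test.

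Markers of other cells were read beside these lists. With TAC averaged over both viruses, 11.3% of all tested genes passed upward and 11.8% downward. In this comparison Col1a1 alone of 4 fibroblast markers rose (1.01), as did 3 of 4 endothelial markers (Cdh5, Pecam1 and Tie1, by 0.16 to 0.25). Pdgfrb of 4 mural markers and Cd14 of 4 macrophage markers also rose, while Cntn2 of 4 ventricular conduction markers fell. Summed fibroblast markers were 343 to 394 CPM in AAV9-GFP sham, 414 to 524 in AAV9-GFP TAC, 334 to 361 in AAV9-Cardinal sham and 326 to 447 in AAV9-Cardinal TAC hearts. Summed endothelial markers were 383 to 467, 449 to 528, 393 to 430 and 420 to 521 CPM in the same order. The 4 adipocyte markers were too low to test, with summed levels of 0.00 to 0.237, 0.00 to 0.261, 0.00 and 0.00 to 0.797 CPM in that order, and Retn alone of them was at 0 in all mice. The part of these markers in the values of the members was not tested.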

How the data were processed

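Libraries of poly(A)-selected RNA were read on the DNBSeq platform (single-end, 50 bases). The deposited table holds raw counts for each Ensembl gene in 16 mice, as the authors obtained them before normalization. The submitters' processing notes name FastQC, HISAT2 2.1.0, edgeR 3.26.1 and GRCm38. The counting program, annotation, strand setting and treatment of reads with several matches are not given in the sources used here. Of 55573 gene IDs, 55480 were named with GENCODE M21, which also gave loci. Totals were 16441997 to 21904589 counts, and floors cover counting error only. Nothing states which mice shared a litter or cage, so p-values measure the spread between these mice.

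Counts were fitted in R 4.3.3 with edgeR 4.0.16 (TMM, expression filter, 16857 genes, quasi-likelihood, all 16 mice, comparisons as contrasts, Benjamini-Hochberg threshold 0.05). The fit was tested on simulated data with this design. CPM used TMM-scaled libraries, and log2 CPM a prior count of 2. Ratios added 0.5 to each count. Exact permutation tests used 70 labelings of 4 mice against 4. The members and lists were chosen with earlier results of these data known. The genes named were the 8 members, the listed genes past the threshold for TAC averaged over both viruses or between viruses after TAC, the 3 most like Nppa or Nppb among genes averaging 1 CPM or more, and Gm12295. Other listed genes and markers, and the Pde2a pattern, were named after their values were seen. Another neighbour of the peptide genes is not reported here. Alternatives were DESeq2 1.42.0, RLE size factors, other filters, only the mice compared, mitochondrially encoded genes left out, Nppa and Gm13054 summed, mouse number as a block, other values added in ratios, and each mouse left out. The test of the ratio's response between viruses was added after seeing the data. Plots were made with matplotlib 3.10.9.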

Additional observations from a re-analysis of the deposited data

Results flagged for a closer look

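Npr3 was at 19.6 CPM in AAV9-Cardinal sham replicate 3, far from the 14.3 to 15.0 CPM of the other 3 mice of that group. Its gap to the nearest mouse was 0.871 of the range of the group. In all, 36 groups of values were examined in this way, and chance marks about 1 in 20, or 1.8 of 36, so a single such value is what chance gives. Without this mouse the Npr3 response to TAC with AAV9-Cardinal moved from -0.079 to 0.037 on the log2 scale.

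The TAC response of the log2 ratio of Nppa to Nppb differed between the viruses by -1.46 (AAV9-Cardinal minus AAV9-GFP; 1.37 with AAV9-GFP and -0.092 with AAV9-Cardinal). The exact two-sided test permuted the virus labels within sham and within TAC (4900 labelings) and gave p = 0.0498, or 0.0996 after Benjamini-Hochberg adjustment over the Nppa to Nppb and Npr3 to Npr1 ratios. This test was chosen after seeing the data. Leaving out each mouse in turn gave -1.73 to -0.91 with exact permutation p from 0.027 to 0.12, under 0.05 in 7 of 16 cases. The value of -0.91 was that without AAV9-GFP sham replicate 4, the mouse with 145 CPM of Nppb and a ratio of 0.287. The difference for the Npr3 to Npr1 ratio was -0.14 (exact permutation p = 0.54).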

How the results depend on the processing

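In AAV9-GFP hearts the same 4 members passed for TAC against sham with each of the 16 mice left out in turn and under DESeq2, RLE size factors, other filters, a fit of the 8 mice alone and without mitochondrially encoded genes. With AAV9-Cardinal 3 members passed, against 0 to 3 with a mouse left out (0 without AAV9-Cardinal sham replicate 2 and 1 without TAC replicate 6) and 2 with no filter on low counts or only the mice compared. Between the viruses after TAC 0 passed, against 2 with DESeq2 and 0 to 2 with a mouse left out (2 without AAV9-Cardinal TAC replicate 1). The causes were not tested. Averaged over both viruses, 3 to 4 passed in all alternatives, and in sham hearts and for the difference of TAC responses 0 did. Counts over all genes moved by more than 1.5 times between viruses after TAC, from 17 to 428 (DESeq2), 35 (at least 1 CPM in at least 4 mice), 30 (no mitochondrially encoded genes), 3 (no filter, or only the mice compared) and 0 to 535 (mice left out), for TAC with AAV9-Cardinal from 1092 to 615 (no filter) and 384 to 1436 (mice left out), for the difference of responses from 2 to 137 (DESeq2) and 79 (without AAV9-Cardinal TAC replicate 1), and between viruses after sham from 2 to 4 (DESeq2) and 1 (without AAV9-Cardinal sham replicate 1, 2 or 4).

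With a mouse left out, values near 0 crossed it: Nppa between viruses after sham (-0.14 to 0.46), the difference of Nppb responses (-0.53 to 0.29), the AAV9-GFP responses of Npr1 (-0.0082 to 0.10), Npr2 (-0.035 to 0.012) and Npr3 (-0.036 to 0.18), and the AAV9-Cardinal responses of Npr3 (-0.15 to 0.037) and Corin (-0.079 to 0.027). The log2 Nppa to Nppb ratio gave 0.82 to 1.63 for TAC with AAV9-GFP, -0.29 to 0.14 for TAC with AAV9-Cardinal, and -1.09 to -0.72 and -0.013 to 0.81 between viruses after TAC and after sham, and the Npr3 to Npr1 ratio gave -0.16 to 0.085 for TAC with AAV9-GFP and -0.19 to 0.059 between viruses after TAC. With a mouse left out, the exact two-sided permutation p of the Nppa to Nppb ratio lay between 0.0286 and 0.0857 for TAC with AAV9-GFP and between 0.0286 and 0.0571 between viruses after TAC, where 0.0286 is the smallest that 3 mice against 4 allow.

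The main fit did not use mouse number, and whether numbers shared between groups pair the mice was not settled. After group means were taken off, 4 of 16 same-numbered pairs correlated above 0.1. The median correlation was 0.054 for same-numbered pairs and -0.013 for the 80 other pairs between groups. Of 13 mice with a shared number, 5 correlated best with their own number. With number as a replicate block, 3 members passed in AAV9-GFP hearts (Nppb did not, with an adjusted p of 0.060 by the quasi-likelihood test of edgeR), 0 with AAV9-Cardinal, 4 averaged over both and 0 in the other comparisons, while counts over all genes were 2091, 31 and 2019 for the 3 TAC comparisons and 0, 1 and 1 between viruses after TAC, after sham and for the difference of responses. Blocked values were 0.0094 for Npr2 with AAV9-GFP, 0.048 for Npr3 with AAV9-Cardinal, 1.71, 0.18 and -0.45 for the Nppa to Nppb ratio (TAC with AAV9-GFP, TAC with AAV9-Cardinal, between viruses after TAC), and 0.11 and 0.14 for the Npr3 to Npr1 ratio (TAC with AAV9-Cardinal, between viruses after TAC).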
